A study of Ovis aries with 36 samples.

Results

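A set of 142 sheep genes was examined whose RNA level differed widely from lamb to lamb in the hippocampus, in the basal ganglia or in both. Levels are CPM, a gene's counted reads scaled to a library of 1000000 counted reads. Members were chosen by these levels alone. A gene was a member when, over the 18 hippocampus and basal ganglia libraries, its highest level was at least 50 CPM and its highest level plus 1 was at least 20 times its lowest level plus 1. Of 27054 genes in the table, 6522 reached 50 CPM in at least 1 of these libraries and 183 of them also had the 20-fold range. Of the 183, 41 were left out because mean levels (plus 1) in the cerebellum (lambs A, B, C, E, F and I) and the motor cortex differed by at least 8-fold, 12 higher in the cerebellum and 29 in the motor cortex. The remaining 142 members are 2.18% of the 6522 genes.

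From each of 9 lambs, pieces of 4 brain regions (hippocampus, basal ganglia, motor cortex and cerebellum) were sequenced, 36 libraries in all. Lambs A to E (labelled Experimental, here called supported) were delivered preterm, put on the extrauterine support system EXTEND through a cannula straight away, and examined near the age of the late preterm lambs. Lambs F and G (late preterm controls) were delivered at 127 days and lambs H and I (preterm controls) were delivered preterm, and these 4 underwent necropsy at once. Lambs A, B, D, E and H were female and C, F, G and I male, so both late preterm lambs were male and 4 of the 5 supported lambs were female. Strain, the age of the preterm lambs, the length of support and how the brain pieces were cut were not stated in the labels, and no genotype or drug treatment was stated. Each lamb is its own animal, so replicates within an arm are biological.

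The hippocampus, which serves memory, lies against the lateral ventricle, and the basal ganglia, which serve movement, lie close to the same ventricle. Tissue with other cell types, such as choroid plexus, ventricle lining, fibre tracts and thalamus, borders both. A library from a piece of brain holds RNA of every cell in the piece, so a gene used by only some of those cells varies with what the piece held. In such bulk samples, fewer cells of a type and less RNA per cell cannot be told apart. The make-up of the pieces was not recorded in the labels, and its part in the results was not tested.

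Total counts ranged from 8782652 to 18153142, with the 12 shallowest libraries all from lambs A, H and I. Members are named by Ensembl identifier because the files do not pair identifiers with symbols and the reference table matched none of them. What each gene does is therefore not given, and marker lists for choroid plexus, ependyma, neurons, glia, vessels, meninges and blood could not be applied to check the labelled regions. Over the 6380 of the 6522 genes that are no members, each library was correlated with regional averages built from the remaining 8 lambs. Every motor cortex and cerebellum library was nearest its own region, as were 6 of 9 basal ganglia libraries and 3 of 9 hippocampus libraries. The hippocampus libraries of B and E were nearest the basal ganglia, and those of A, G, H and I nearest the motor cortex. The basal ganglia libraries of A and I were nearest the motor cortex, and that of G nearest the hippocampus. Some of these were near ties. The hippocampus of C had a correlation of 0.2975 with its own region and 0.2895 with the basal ganglia. The basal ganglia of F had 0.36 with its own region and 0.3524 with the hippocampus, and that of G 0.2624 and 0.3188. The cerebellum of H reached only 0.2152 with its own region. With only the 9 hippocampus and basal ganglia libraries that were nearest their own region, 76 genes passed the rule, all of them among the 142. In the cerebellum, the libraries of H, D and G stood apart, with 1650, 96 and 69 of 6522 genes at least 4-fold from the mean of the other lambs, against 3 to 14 genes in the other 6.

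The range that chose the members ran from 20.4-fold to 394-fold with a median of 36.8-fold, against a median of 1.94-fold over the 6522 genes. The member nearest the threshold had 20.4-fold and the nearest gene outside had 19.6-fold. On the CPM criterion, the lowest maximum of a member was 51.5 CPM and the highest among genes with the 20-fold range that fell short was 49.1 CPM. The largest cerebellum to motor cortex difference in a member was 7.89-fold, and the smallest among the genes left out was 8.35-fold. In 28 members the lowest level was under 1 CPM, and 6 had a count of 0 in at least 1 library. These values made the selection and describe it, with no test.

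Of the 142 members, 96 peaked in a basal ganglia library and 46 in a hippocampus library. A range of at least 20-fold was reached within both regions by 60 members, within the basal ganglia alone by 52, within the hippocampus alone by 13 and only across the regions by 17. By region this made 73 members in the hippocampus, beside 1.41% of the 6522 genes, and 112 in the basal ganglia, beside 2.22%. A 4-fold range was reached by 129 members, beside 9.49% of genes, and by 141, beside 13.7%. The rule used these ranges, so nothing is read from them. Below, a bracketed percentage of genes after a count of members is the share of all genes past the same cut. A library was called high for a member when its level plus 1 was within 4-fold of the highest, and low when it was within 4-fold of the lowest. By this measure a member was high in a median of 6 of the 18 libraries. Only 5 members were high in a single library, 17 in 2 libraries and 35 in 9 or more. High levels fell in both regions for 115 members, in the basal ganglia alone for 25 and in the hippocampus alone for 2. No member was called between the basal ganglia and the hippocampus over all lambs (edgeR's quasi-likelihood test with lamb as a block, Benjamini-Hochberg adjusted p under 0.05, as in all tests below), beside 0.0115% of 17450 genes. At an unadjusted p under 0.05 there were 22 of 142 members, beside 1087 of 17450 genes. DESeq2 called 5 members, beside 59 of 24226 genes. The same libraries chose the members, so nothing is read from this count.

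Few libraries carried the peaks. The basal ganglia of lamb D held the peak of 25 members, that of lamb B 22 and that of lamb G 20, and the hippocampus of lamb B held 17. The lowest level of 34 members was in the hippocampus of lamb I, of 19 in the basal ganglia of D and of 18 in the hippocampus of H. The basal ganglia library of D thus stood at an end of the range for 44 members. Together the members took 3.98% of the counts in the hippocampus of B, 3.92% in the basal ganglia of B and 4.01% in the basal ganglia of G. The share was 0.428% in the hippocampus of H, 0.456% in the hippocampus of I and 0.506% in the basal ganglia of I. In the 9 motor cortex libraries it was 0.550% to 1.67%. The rule chose genes with extreme levels in the other libraries, so nothing is read from this difference. The share also weighs members by level. In the hippocampus of B, ENSOARG00000000548 alone had 143540 of the 17885005 counts.

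The members fell into 20 groups by the correlation of their log2(CPM + 1) over the 18 libraries (average linkage, correlation of about 0.6 at the cut). The 7 groups with at least 5 members hold 114 of the 142, 8 groups of 2 to 4 members hold 23, and 5 members stand alone. All genes of a group share the same libraries and depth, and the groups describe the levels that were clustered, with no test.

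**Figure D1:**
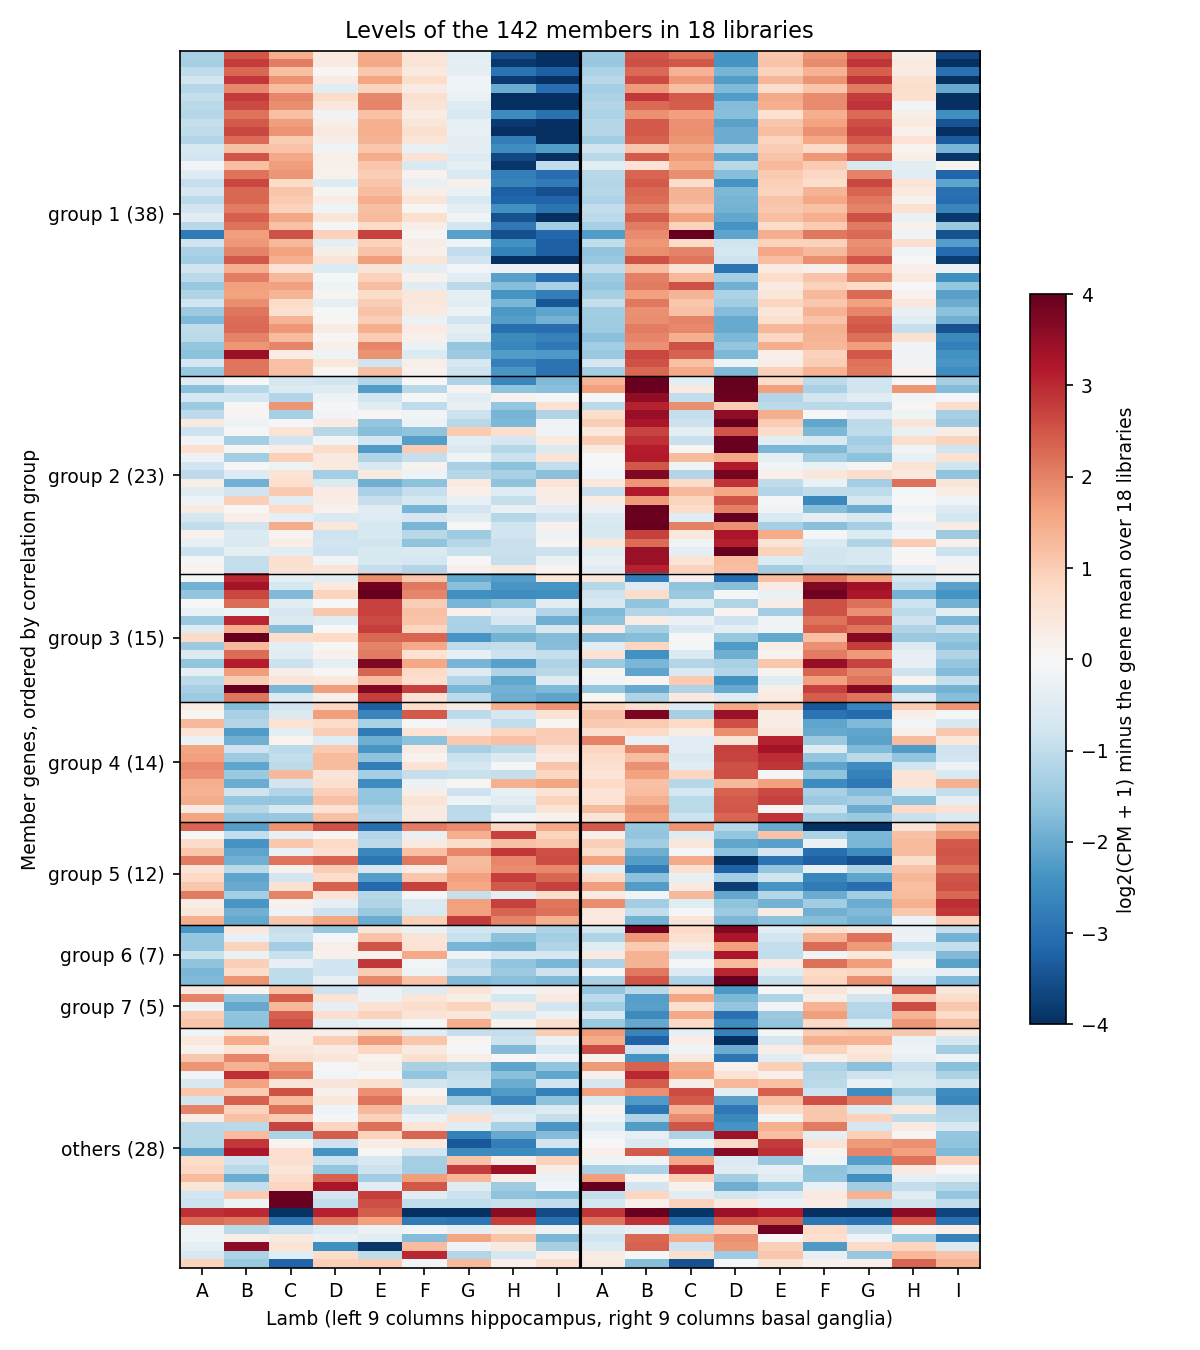
Level of each of the 142 members (rows, ordered by group, number of members in brackets) in the 9 hippocampus and 9 basal ganglia libraries (columns, by lamb), as log2(CPM + 1) minus the gene's mean over the 18 libraries; colours are clipped at 4 log2 units either way. Group 1 is high in both libraries of lambs B, C and E and low in the hippocampus of H and I, and group 2 is high in the basal ganglia of B and D.

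Group 1, with 38 members, was high in both libraries of lambs B, C and E and in the basal ganglia of F and G, where 34 to 38 of the 38 were within 4-fold of their maximum. It was low in the hippocampus of H (37 of 38 members) and I (36) and in the basal ganglia of I (36). In the hippocampus the group's median level was 26.3 CPM in A, 220 in B, 108 in C, 49.3 in D, 97.1 in E, 58.9 in F, 41.6 in G, 5.95 in H and 4.68 in I. The preterm libraries were the lowest there, and all 7 others lay above them. In the basal ganglia it was 21.4 CPM in A, 198 in B, 127 in C, 13.7 in D, 99.7 in E, 104 in F, 207 in G, 55.4 in H and 6.82 in I. Here the arms overlapped, with preterm lamb H above supported lambs A and D.

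ENSOARG00000000548 had the highest level of group 1. In the hippocampus it stood at 589 CPM in A, 8026 in B, 3948 in C, 1900 in D, 4073 in E, 2055 in F, 1069 in G, 126 in H and 91.4 in I. In the basal ganglia it stood at 532 CPM in A, 8205 in B, 6579 in C, 280 in D, 3028 in E, 4925 in F, 8893 in G, 1701 in H and 116 in I. The 2 libraries of lamb B were alike, while those of lamb G differed from 1069 to 8893 CPM. In the motor cortex it ranged from 330 CPM in H to 3480 in F, with 2624 in C and 883 or less in the other 7 lambs.

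ENSOARG00000002491 had the widest range of all members, 394-fold. It reached 1835 CPM in the hippocampus of B, 1860 in the basal ganglia of B and 1846 in the basal ganglia of G, and fell to 3.72 CPM in the hippocampus of I, 7.50 in the basal ganglia of I and 9.13 in the hippocampus of H. The same 3 libraries were the highest, and the same 3 the lowest, as for ENSOARG00000000548.

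Members of group 1 also moved together in motor cortex libraries, which the clustering did not use. Over the 9 motor cortex libraries the median pairwise correlation within group 1 was 0.90, against 0.04 between members of different groups and 0.96 within the group over the 18 libraries. These correlations are across lambs for pairs of genes that share the same libraries. The motor cortex medians of group 1 were 93.0 CPM in F, 70.7 in C, 31.6 in B, 31.5 in A, 19.4 in G, 18.8 in E, 16.8 in D and 12.1 in H. Lamb I, lowest in the hippocampus and in the basal ganglia, lay between C and B here, as the third highest. In the cerebellum the within-group median correlation was 0.67.

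**Figure D2:**
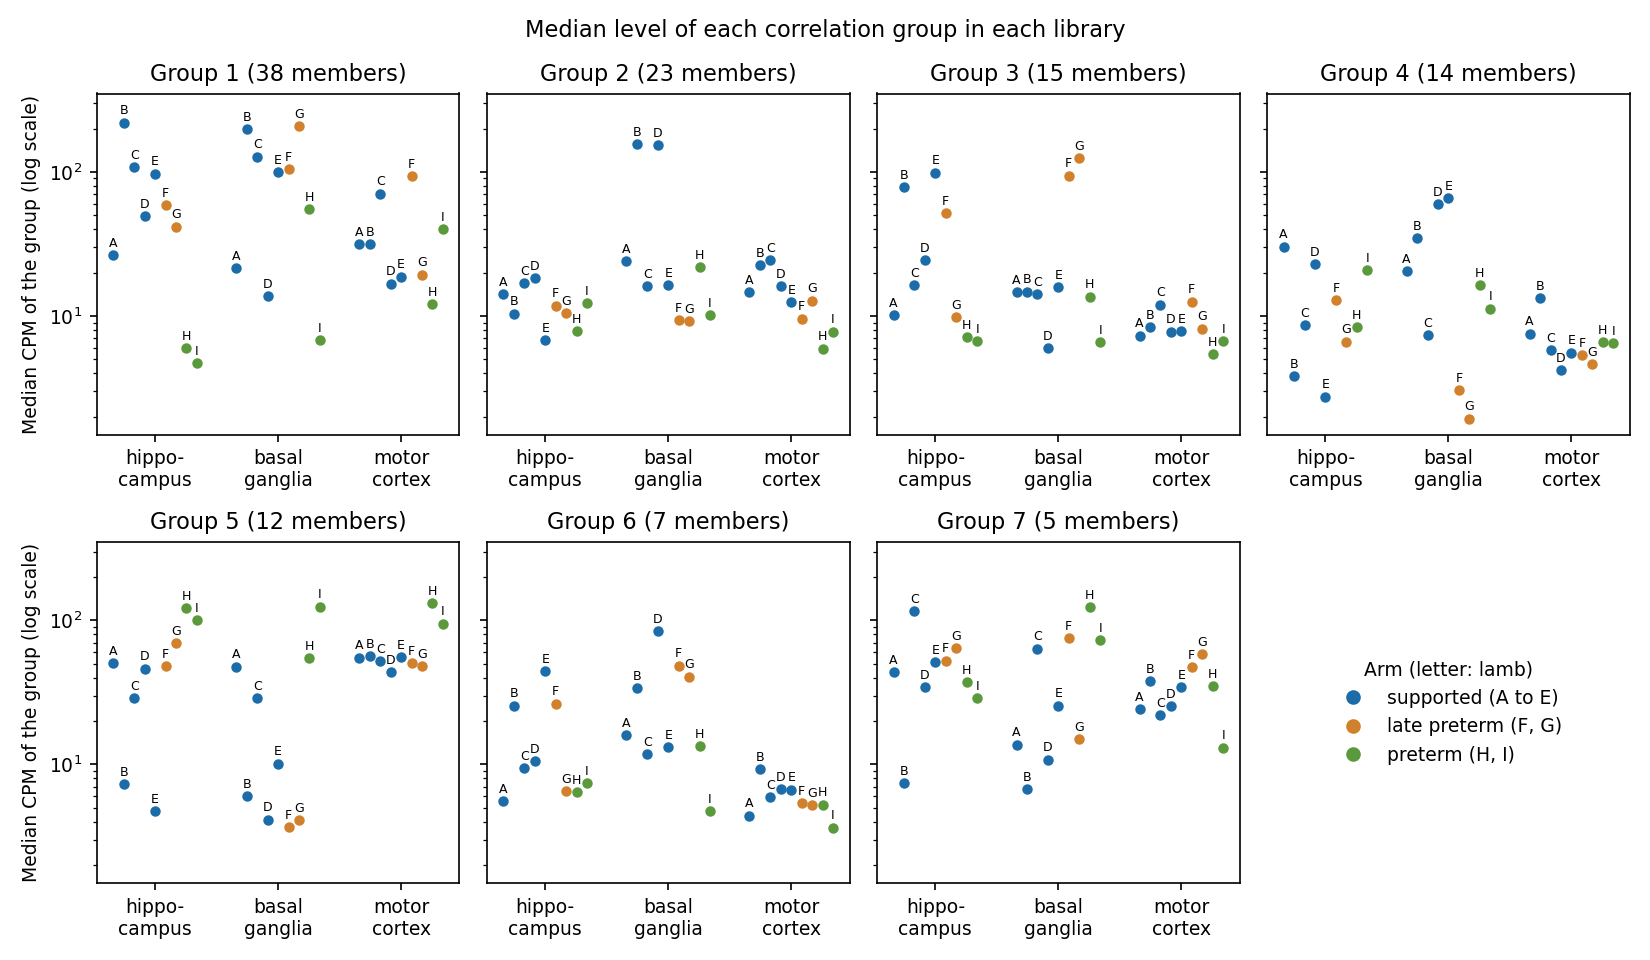
Median CPM (log scale) of the members of each of the 7 larger groups in each hippocampus, basal ganglia and motor cortex library; each point is 1 library, lettered by lamb and coloured by arm. Group 2 stands at 156 and 154 CPM in the basal ganglia of B and D and at 24.5 CPM or less in every other library shown, while group 5 is under 11 CPM in 7 libraries and at least 43.8 CPM throughout the motor cortex.

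Over the 18 libraries group 2, with 23 members, peaked in the basal ganglia only, and in 2 lambs. The median level was 156 CPM in the basal ganglia of B and 154 in that of D, against 9.16 to 24.0 CPM in the other 7 basal ganglia libraries and 6.81 to 18.3 CPM in the hippocampus. All 23 members were high in B and 19 in D. The medians hide members that were also high in the motor cortex, where 4 of the group had a 20-fold range. A member not high in D had 8528 counts in the motor cortex of C, against 7168 in the basal ganglia of B and 1782 in that of D. ENSOARG00000011394 had both the highest level and the widest range of the group. In the basal ganglia it stood at 53.2 CPM in A, 663 in B, 14.9 in C, 821 in D, 34.4 in E, 9.36 in F, 11.6 in G, 20.8 in H and 7.50 in I. In the hippocampus it was 2.46 to 20.5 CPM, so lambs B and D did not stand apart there. Both libraries with the high level were nearest their own region over genes that are no members.

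Group 3, with 15 members, was high in the hippocampus of B, E and F and in the basal ganglia of F and G. The medians in these libraries were 78.4, 98.8, 51.8, 94.2 and 125 CPM, and in the other 13 libraries 6.01 to 24.3 CPM. Motor cortex medians were 5.43 to 12.5 CPM. ENSOARG00000003936 had the highest level of the group, with 1813 CPM in the hippocampus of B, 1018 in the basal ganglia of F, 813 in the hippocampus of E and 26.0 in the basal ganglia of D. ENSOARG00000019002 had the widest range, from 2.62 CPM in the hippocampus of H to 378 in that of E, with 296 in the basal ganglia of F. The high libraries belonged to the supported and the late preterm arm, and none to the preterm arm.

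Group 4, with 14 members, was the reverse of group 3 in 4 of these 5 libraries. All 14 members were low in the hippocampus of B and E and in the basal ganglia of F and G, with medians of 3.80, 2.75, 3.04 and 1.94 CPM. The highest medians were 65.5 CPM in the basal ganglia of E, 59.6 in that of D and 34.6 in that of B. Lamb E thus held both a low library, its hippocampus, and the highest one, its basal ganglia. ENSOARG00000004165 had the highest level of the group, 380 CPM in the hippocampus of I and 368 in the basal ganglia of I, and its lowest in the basal ganglia of F, 9.48 CPM. ENSOARG00000004484 had the widest range, from 1.90 CPM in the basal ganglia of G to 343 in that of B.

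Group 5, with 12 members, was low in 7 libraries and otherwise close to the motor cortex. Its median was 3.68 to 10.1 CPM in the hippocampus of B and E and in the basal ganglia of B, D, E, F and G, and 28.7 to 124 CPM in the other 11. In each of these 7 libraries 9 to 12 of the 12 members were below all 9 motor cortex libraries. Motor cortex medians were 43.8 to 131 CPM. ENSOARG00000013029 had the highest level and the widest range of the group. In the hippocampus it stood at 783 CPM in A, 32.8 in B, 535 in C, 902 in D, 18.2 in E, 644 in F, 575 in G, 278 in H and 446 in I. In the basal ganglia it stood at 847 CPM in A, 53.3 in B, 527 in C, 71.9 in D, 37.2 in E, 6.14 in F, 5.14 in G, 224 in H and 390 in I. It was 266 to 1047 CPM in every motor cortex library, above all 7 low ones.

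The smaller groups had their own sets of libraries. Group 6 (7 members) had its highest medians in the basal ganglia of D (83.7 CPM), F (48.6) and G (40.6) and the hippocampus of E (44.4), and 3.65 to 9.28 CPM in the motor cortex. Its member ENSOARG00000001053 reached 473 CPM in the basal ganglia of B and 426 in that of D and was 55.1 CPM or less in the other 16 libraries. Group 7 (5 members) was highest in the basal ganglia of H (124 CPM) and the hippocampus of C (115) and lowest in the hippocampus and basal ganglia of B (7.38 and 6.75) and the basal ganglia of D (10.8). Its member ENSOARG00000002590 stood at 422 CPM in the basal ganglia of H and 14.6 in that of D. ENSOARG00000009128, of the same group, stood at 115 CPM in the hippocampus of C and 1.84 in the basal ganglia of D.

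Outside group 1, the members of a group moved together less closely in the motor cortex than in the libraries that grouped them. The median pairwise correlation in the motor cortex was 0.29 in group 2, 0.13 in group 3, 0.20 in group 4, 0.50 in group 5, 0.19 in group 6 and 0.56 in group 7. Over the 18 libraries, which formed the groups, it was 0.71 to 0.82 in these 6.

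Libraries that shared high levels crossed the regional labels. The hippocampus of E and the basal ganglia of F, from different regions and lambs, were both high for 61 members. In this pair 121 of the 142 members were within 2-fold of each other, beside 99.2% of the 6522 genes. The hippocampus of B and the basal ganglia of G shared 59 high members. By members, the 2 libraries of lamb C were the most alike of the 153 pairs, with 63 high in both and 125 within 2-fold. Over the 6522 genes, 99.0% were within 2-fold there, against 99.5% in the 2 libraries of lamb I. The 2 libraries of lamb D were within 2-fold in only 24 members, those of G in 40 and those of H in 50. The basal ganglia of B shared 45 high members with that of D and 51 with that of E, although D and E shared 15.

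**Figure D3:**
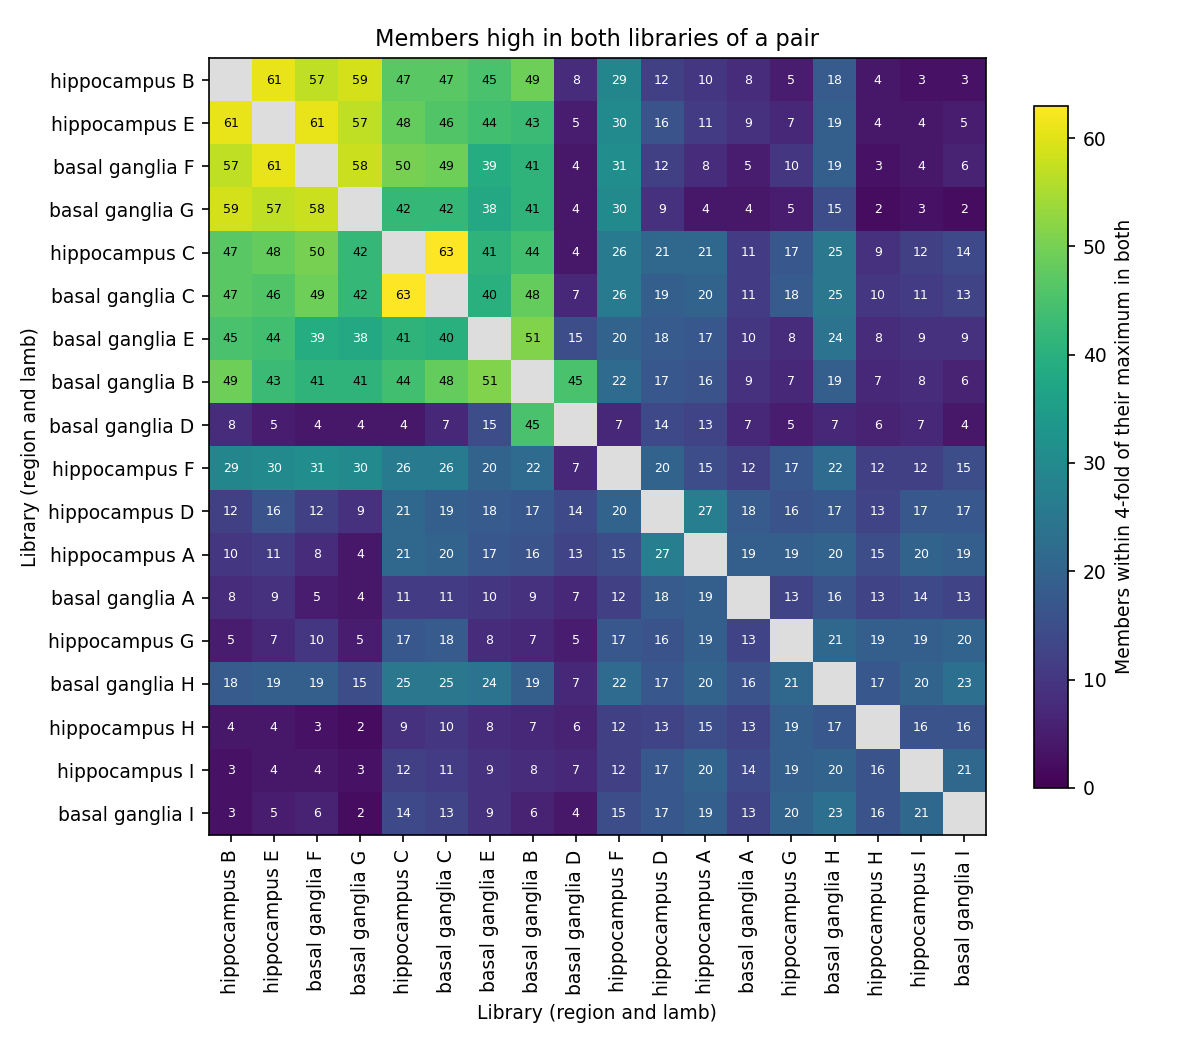
Number of the 142 members within 4-fold of their maximum in both libraries of each pair, for the 18 hippocampus and basal ganglia libraries; the order of libraries was chosen after the values were seen. The block at the upper left (hippocampus of B, E and C, basal ganglia of F, G, C, E and B) holds 38 to 63 shared members in each pair.

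The lamb in which a member peaked was the same in the hippocampus and the basal ganglia for 26 of 142 members (18.3%), as for 26.0% of the 6522 genes. Between the hippocampus and the motor cortex it was 27 members (19.0%) against 26.7%, and between the basal ganglia and the motor cortex 19 (13.4%) against 17.9%. The hippocampus and basal ganglia levels chose the members and the difference in shares was not tested, so nothing is read from these values.

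The members varied less in the regions that did not set the range. Choosing genes for a wide range in other libraries leads to such a drop, so nothing is read from it. A range of at least 20-fold over the 9 motor cortex libraries was found in 9 of 142 members, beside 0.199% of the 6522 genes. A range of at least 4-fold was found in 83, beside 3.3% of genes. The median range there was 4.74-fold for members and 1.52-fold for all 6522. In the cerebellum 15 members had a 20-fold range, beside 2.68% of the 6522 genes. A 4-fold range was found there in 92, beside 36.2%, and the median was 4.95-fold against 2.88-fold. Without the 3 cerebellum libraries that stood apart, 39 members had a 4-fold range, beside 1.56% of genes. The medians were then 2.92-fold and 1.36-fold. The motor cortex and cerebellum libraries come from the same lambs, and their means entered the rule's last step.

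The range did not use the motor cortex libraries. They come from the same lambs as the libraries that chose the members, and their mean entered the rule's last step. The hippocampus of preterm lambs H and I held the lowest level of 18 and 34 members. The motor cortex counts are therefore not independent of the choice. Between supported and preterm lambs, 36 of the 137 members tested were called, beside 12.2% of 16173 genes. Levels in supported lambs were higher in 27 of them, beside 6.46% of genes, and lower in 9, beside 5.79%. The other 5 members fell to the filter on low counts. The median log2 fold change was 0.58 over members and -0.002 over all genes. Called higher were 9 of 22 tested members of group 2, 4 of 14 of group 3, 2 of 14 of group 4, 1 of 38 of group 1, 1 of 12 of group 5 and 1 of 6 of group 6. Groups 8, 9, 10 and 13 had 2 each and group 17 had 1. Called lower were 6 of 12 members of group 5 and 3 of 14 of group 4. Without preterm lamb H the count was 19 and without preterm lamb I 23. A fit that adds the depth group (A, H and I against the rest) called 9 members, and 171 of 16173 genes. Both preterm lambs and 1 supported lamb are in the shallower set. The count over all genes, 1980 in the main fit, also fell without H and without I.

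ENSOARG00000002395 had the largest rise among called members in the motor cortex. It stood at 18.7 CPM in A, 11.9 in B, 15.1 in C, 3.25 in D and 6.21 in E, 5.49 in F, 1.14 in G, 0.919 in H and 0.591 in I. All 5 supported lambs were above both preterm lambs, and late preterm lamb F lay among the supported ones. The log2 fold change of supported over preterm was 3.87 (SE 0.881, edgeR adjusted p = 0.0177). It was not called without lamb H (adjusted p = 0.0876) or without lamb I (0.145), or with depth group added (0.0583).

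ENSOARG00000009911, of group 5, had the largest fall there. It stood at 10.3 to 16.3 CPM in the 5 supported lambs, 12.7 and 12.4 in the late preterm lambs F and G, and 53.7 and 40.2 in the preterm lambs H and I. The preterm lambs lay above all 7 others, and the log2 fold change was -1.78 (SE 0.174, edgeR adjusted p = 0.000407). It was called under every alternative that was run. The same gene was also high in the hippocampus of H (45.0 CPM) and I (41.1) and in the basal ganglia of I (64.4), and 1.40 to 27.7 CPM in the other 15 libraries.

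ENSOARG00000013029, also of group 5, moved the other way in the motor cortex. It stood at 831 to 1047 CPM in the supported lambs, 663 and 730 in F and G and 326 and 266 in H and I, with a log2 fold change of 1.66 over preterm (SE 0.138, edgeR adjusted p = 0.000243). The 3 arms did not overlap, with the supported lambs highest. This gene was named for its level and range in group 5.

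**Figure D4:**
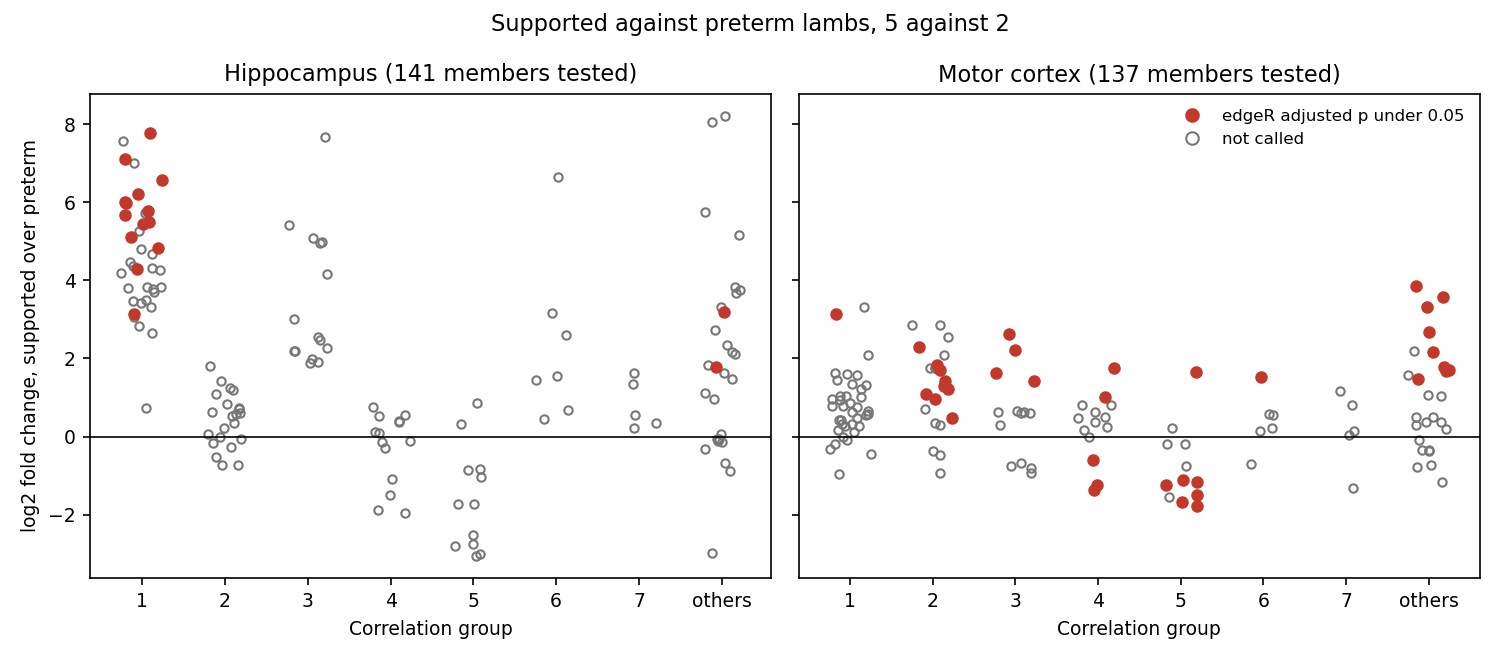
log2 fold change of supported over preterm lambs for each tested member, by correlation group, in the hippocampus (left) and the motor cortex (right); filled points have an edgeR adjusted p under 0.05, and points are spread sideways at random. In the hippocampus 14 of the 16 called members are in group 1, and in the motor cortex the called members are spread over the groups, with 6 of the 9 that fell in group 5.

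Late preterm against preterm lambs in the motor cortex gave 15 called members, beside 2.58% of genes. Of these, 8 were higher, beside 1.56% of genes, and 7 lower, beside 1.03%. Of the 7, 6 were in group 5. ENSOARG00000007592 had the largest rise, at 16.1 and 31.5 CPM in F and G against 2.67 and 2.27 in H and I (log2 fold change 3.28, SE 0.761, edgeR adjusted p = 0.0499). ENSOARG00000001512 had the largest fall, at 2.46 and 2.61 CPM against 15.5 and 7.39 (log2 fold change -2.16, SE 0.450, adjusted p = 0.0373). The count was 8 without lamb A, 1 without lamb G and 3 without lamb H. It was 0 once depth group was added. The count over all genes also fell in each of these fits. ENSOARG00000007592 lost its call without A, C, E, G, H or I (adjusted p = 0.0563 to 0.274) and ENSOARG00000001512 without A, D, F, G or H (0.0514 to 0.223). Both also lost it with sex as a term (0.0806 and 0.0914) and with depth group added (0.452 and 0.339), and ENSOARG00000007592 with RLE size factors (0.0509). Supported against late preterm lambs gave 0 called members in the motor cortex by edgeR (0% of genes). At an unadjusted p under 0.05 there were 24 of 137 members, beside 2661 of 16173 genes. DESeq2 called 9 of 131 members, beside 603 of 14156 genes. The 2 preterm lambs entered both comparisons that gave calls by edgeR.

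In the hippocampus, 16 of 141 tested members were called between supported and preterm lambs, beside 2.52% of 16370 genes. In supported lambs 16 were higher, beside 1.32% of genes, and 0 lower, beside 1.2%. These libraries chose the members, so nothing is read from the counts or the p-values. Of the 16, 14 belonged to group 1. The largest rise was in ENSOARG00000007788, at 9.01 CPM in A, 143 in B, 67.2 in C, 35.5 in D and 80.3 in E against 0.318 in H and 0.286 in I. The late preterm lambs F and G stood at 34.9 and 14.0 CPM. The preterm values rest on 4 and 3 counts, and the log2 fold change was 7.78 (SE 1.46, edgeR adjusted p = 0.0427). Both preterm hippocampus libraries were nearest the motor cortex over genes that are no members, so no value without such libraries could be had. The count of 16 was 39 without lamb A, 2 without B, 12 without D and 0 without any 1 of C, E, F, G, H and I. Adding the depth group also gave 0, with 0 of 16370 genes called. Over all genes the count rose from 413 to 939 without lamb A and fell without any other 1 lamb. ENSOARG00000007788 had adjusted p = 0.0531 to 0.342 without B, C, E, F, G, H or I, and 0.0555 with sex as a term. With depth group added its log2 fold change was 4.84 (adjusted p = 0.445). The other 2 hippocampus comparisons gave 0 called members by edgeR (0% of genes). At an unadjusted p under 0.05 there were 13 for supported against late preterm (796 of 16370 genes). For late preterm against preterm there were 36 (1387 of 16370 genes). DESeq2 called 3 (21 of 18179 genes) and 25 (161 of 13382 genes).

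In the basal ganglia, 7 of 142 members were called between supported and late preterm lambs, beside 0.288% of 16679 genes. In supported lambs 1 was higher, beside 0.0839% of genes, and 6 were lower, beside 0.204%. These libraries chose the members too, so nothing is read from the counts or from the p-values of the genes named. All 6 were in group 3. ENSOARG00000012352 had the largest fall, at 17.7 CPM in A, 28.1 in B, 12.6 in C, 11.5 in D and 50.6 in E against 537 in F and 431 in G (log2 fold change -4.41, SE 0.524, edgeR adjusted p = 0.0280). In the hippocampus the same gene was at 411 CPM in supported lamb B and 596 in E, against 176 in F and 11.9 in G. The libraries of the supported and late preterm arms overlapped there, unlike in the basal ganglia. ENSOARG00000004165 was the member called higher, at 74.3 to 317 CPM in the supported lambs against 9.48 and 16.1 in F and G (log2 fold change 3.89, SE 0.607, adjusted p = 0.0499). The count was 1 without A, 2 without B, 13 without C, 4 without D, 0 without any 1 of F, G, H and I, and 0 with sex as a term. ENSOARG00000012352 kept its call without C, D or E (adjusted p = 0.0116 to 0.0487) and lost it without any other lamb (0.0577 to 0.213), and ENSOARG00000004165 kept it without C alone (0.0200). Both lost it with sex as a term (0.204 and 0.371) and with depth group added (0.0580 and 0.0834). Among all genes, the number called rose from 48 to 233 without lamb C. That number fell without any other lamb and with either term added. With only the libraries nearest their own region, which leaves F as the late preterm lamb, no member was called. The other 2 basal ganglia comparisons gave 0 called members by edgeR (0% of genes for supported against preterm, and 0.012% for late preterm against preterm, 0.006% each way). At an unadjusted p under 0.05 there were 29 for supported against preterm (2028 of 16679 genes). For late preterm against preterm there were 45 (2717 of 16679 genes). DESeq2 called 16 (529 of 16512 genes) and 25 (845 of 16073 genes). A difference between regions in any of these changes was not tested.

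Separation of the supported lambs from the other 4 was counted in each region. Brackets give the share of all 6522 genes that separated in the same way. All 5 supported lambs were above all 4 others for 6 members in the hippocampus (3.53% of the 6522 genes), 6 in the basal ganglia (1.75%), 5 (6.67%) in motor cortex and 3 (1.84%) in cerebellum. They were below all 4 others for 2 members in the hippocampus (4.02%) and 0 in the basal ganglia (1.75%) and motor cortex (5.31%). In the cerebellum it was 4 (1.59%). The hippocampus and basal ganglia libraries chose the members, so nothing is read from their counts, and in the motor cortex the counts were not above the share over all 6522 genes.

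Of the 6 in the hippocampus, 4 made up a group of their own, group 9, which was singled out after its values were seen. ENSOARG00000003501 stood in the hippocampus at 109 CPM in A, 84.4 in B, 106 in C, 30.2 in D and 36.6 in E, against 11.98 in F, 12.9 in G, 6.43 in H and 9.83 in I. ENSOARG00000011444 stood at 13.3, 115, 61.7, 13.2 and 14.2 CPM in A to E, against 2.67 to 6.91 in the other 4. ENSOARG00000002395 stood at 10.2 to 56.7 CPM against 0.477 to 9.32, and ENSOARG00000008817 at 10.8 to 54.7 CPM against 3.65 to 9.89. In the basal ganglia 3 of the 4 kept the lambs apart in the same way, and ENSOARG00000008817 did not, with A at 10.5 CPM below G at 14.4 and H at 10.8.

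In the motor cortex, which did not set the range, 1 of the 4 did so. ENSOARG00000011444 stood there at 14.7 CPM in A, 85.1 in B, 39.9 in C, 14.2 in D and 15.9 in E, against 4.04 in F, 8.56 in G, 3.34 in H and 2.46 in I. The log2 fold change of supported over preterm was 3.58 (SE 0.864, edgeR adjusted p = 0.0228). Of the 4 genes, ENSOARG00000011444 and ENSOARG00000002395 were called in that comparison. ENSOARG00000003501 was called in the hippocampus against preterm (edgeR adjusted p = 0.0427). None of the 4 was called against late preterm in any of these 3 regions. They were singled out for their levels in the supported lambs, so nothing is read from these p-values. The calls of ENSOARG00000003501 and ENSOARG00000011444 were not followed across alternatives. In the cerebellum ENSOARG00000003501 reached 712 CPM in lamb B, against 6.89 to 63.2 in the other 8.

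**Figure D5:**
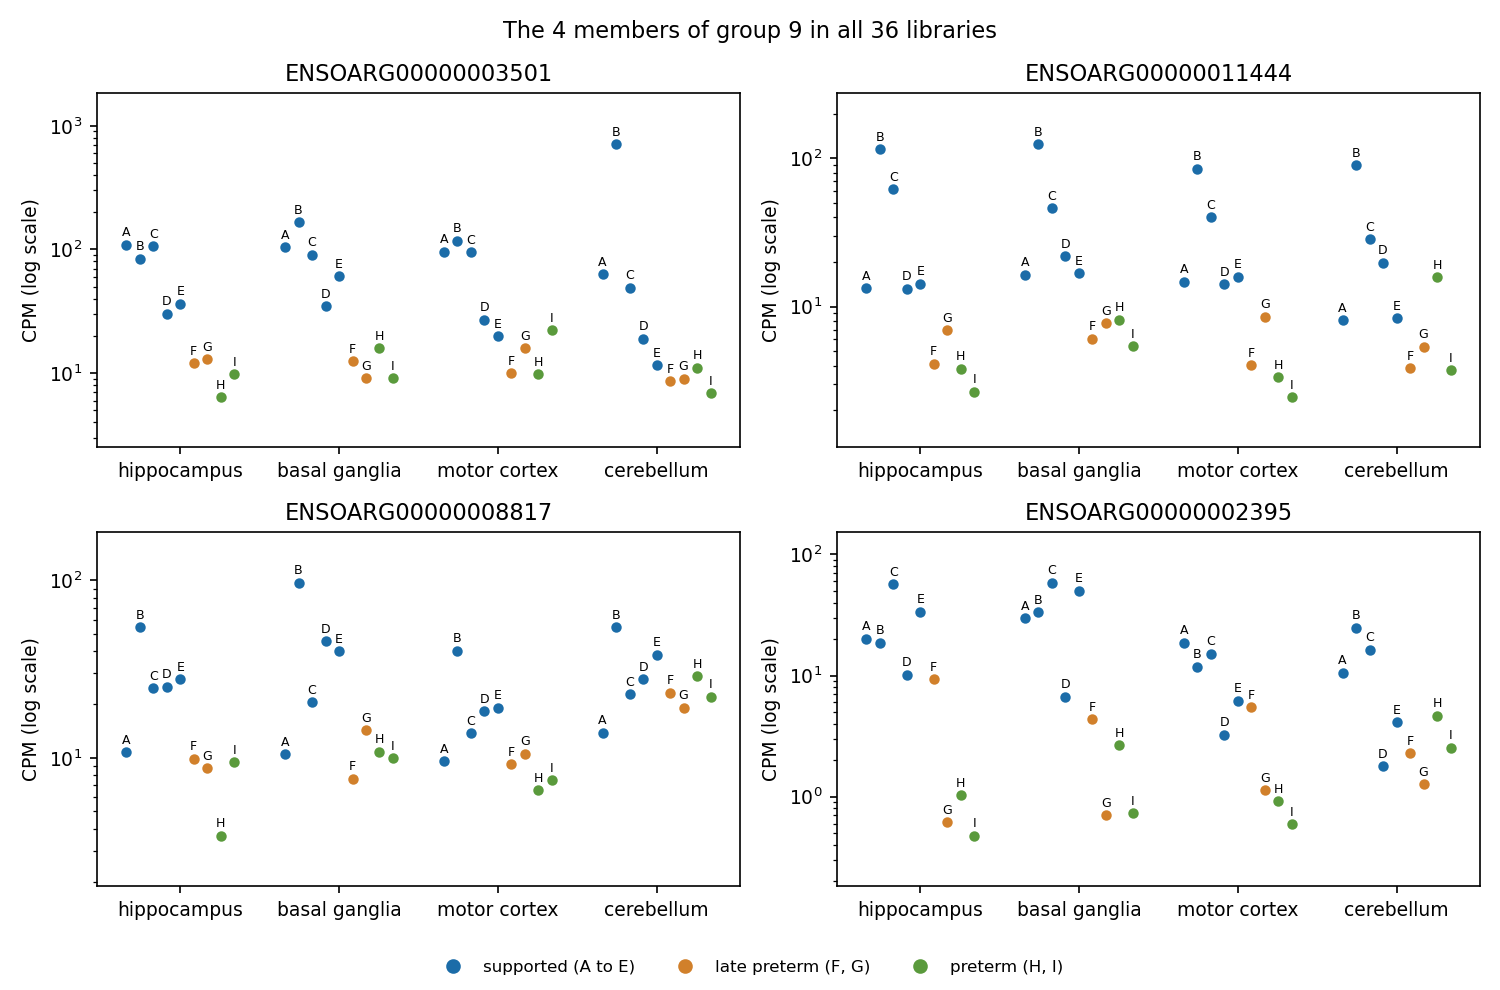
CPM (log scale) of the 4 members of group 9 in all 36 libraries, by region; each point is 1 library, lettered by lamb and coloured by arm. In the hippocampus the 5 supported lambs lie above the other 4 in each panel, and ENSOARG00000003501 stands at 712 CPM in the cerebellum of B.

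Some members differed with the sex of the lamb in every region, or in part with the lamb. These were also chosen after their values were seen. ENSOARG00000025367 stood at 117 to 512 CPM in the 20 libraries of female lambs and at 0.0631 to 1.17 CPM in the 16 of male lambs. ENSOARG00000024320 stood at 7.40 to 87.5 CPM in females and 0 to 0.212 CPM in males. Neither overlapped between the sexes in any region, and the share of all genes that do so is not given here. ENSOARG00000019174 was at 9.11 to 13.1 CPM in all 4 libraries of lamb C and at 35.8 to 86.8 CPM in those of B, against 97.7 to 1090 CPM in the other 28. It also varied within a lamb, with 1739 counts in the hippocampus of H and 6985 in its basal ganglia. ENSOARG00000015403 was at 494 CPM in the hippocampus of B, 1.83 in that of E, 212 in the basal ganglia of B and 13.0 in the motor cortex of B. Lamb B was the highest in the hippocampus and in the basal ganglia. The part of sex, lamb or piece in these levels was not tested.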

How the data were processed

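Per the labels' protocols, RNA was extracted from frozen brain pieces and enriched for mRNA. Per the series' design text, the authors used fastp for trimming, mapped read pairs by STAR against the sheep genome of Ensembl 107 and deposited a table of STAR's unstranded counts, which are whole numbers. Tool versions are not stated there. Unstranded counts mix a gene with any overlapping or antisense gene, and near-identical copies may lose reads. No library repeated another: in any pair at most 1.32% of the genes with over 20 reads had equal counts.

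CPM here are counts over column totals. Members were clustered on log2(CPM + 1). Tests used edgeR 4.0.16 (R 4.3.3): TMM factors, filterByExpr, quasi-likelihood F-test, Benjamini-Hochberg adjustment over all tested genes, threshold 0.05, each region's 9 libraries fitted together. Basal ganglia against hippocampus was fitted over 36 libraries, blocked by lamb. The SE given with a log2 fold change is its absolute value over the square root of the F statistic. It is an approximation and not an output of edgeR. DESeq2 1.42.0 was an alternative. Scripts were tested on simulated data. The identifiers named are the highest and the widest member of each group of at least 5 and the largest called change in each direction per comparison. Group 9 and 4 further members were named after their values were seen. The members, lists and tests were chosen with earlier results of these data known. The reference table (35057 genes, ARS-UI_Ramb_v3.0) matched 0 identifiers.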

Additional observations from a re-analysis of the deposited data

Results flagged for a closer look

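Group medians and the named members were looked at over the 5 supported lambs of a region, 43 sets in all, for a sample far from the others (the gap to the nearest other sample over the whole range, with the 95% limit of Dixon's test for 5 samples, 0.71). Of the 43 sets, 4 were marked. The rate of about 1 in 20 holds for independent, normally distributed values. These sets share libraries and genes, and most come from the libraries that chose the members. That rate therefore does not apply, and nothing is read from the number marked. In the motor cortex, lamb C stood above the other supported lambs for the median of group 1, at 70.7 CPM against 31.6 for the next. Lamb C also stood above them for the median of group 3, at 11.99 CPM against 8.33. In the basal ganglia, lamb D stood below the others for the median of group 3, at 6.01 CPM against 14.1 for the next lowest. ENSOARG00000009128 stood at 63.5 CPM in the basal ganglia of lamb C, against 13.7 for the next.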

How the results depend on the processing

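The members were 140 on TMM library sizes (136 shared), 121 to 137 without any 1 lamb, 296 at a 10-fold range, 64 at a 40-fold range and 76 with only the libraries nearest their own region. The members in groups of at least 5 numbered 104 to 127 under the alternatives. With DESeq2 the called members were, in the order motor cortex, hippocampus and basal ganglia, 33, 25 and 25 for late preterm against preterm and 9, 3 and 46 for supported against late preterm. For supported against preterm it was 42, 64 and 16. With no filter on low counts, 4 were called for late preterm against preterm in the basal ganglia and 1 for supported against late preterm in the motor cortex. With the depth group as a term, supported against preterm gave 9 in the motor cortex and 0 in the hippocampus, late preterm against preterm gave 0 in the motor cortex, and supported against late preterm gave 1 in the basal ganglia. With sex as a term, an alternative chosen after seeing the data, as was the use of libraries nearest their own region, these 4 gave 38, 4, 8 and 0. With only the libraries nearest their own region, supported against late preterm gave 0 in the basal ganglia.

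Leaving out 1 lamb at a time gave 19 to 39 (supported against preterm), 1 to 17 (late preterm against preterm) and 0 to 1 (supported against late preterm, 1 without F) in the motor cortex. It gave 0 to 39 for supported against preterm in the hippocampus. In the basal ganglia it gave 0 to 13 for supported against late preterm and 0 to 3 for late preterm against preterm (2 without B, 3 without C). Basal ganglia against hippocampus gave 3 called members without the replicate block, where the pairing is the lamb, and 0 with it. Between arms no paired analysis was possible because the arms hold different lambs. The number called over all genes also changed under most of these settings. Neither the cause of these changes nor a difference in them between members and other genes was tested. For the 7 members named for the largest called change of a comparison, no direction reversed under the alternatives run; the others named were not followed across alternatives. The 2 preterm and 2 late preterm lambs limit what these tests can show.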
